A study of Mus musculus with 4 samples.

Results

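The genes described here encode the proteins of the cytosolic ribosome. They were taken from the deposited table by symbol: Rpl or Rps followed by a number, with the suffixes a, x, y or l and a further digit allowed, plus Rpsa, Rplp0, Rplp1 and Rplp2. Of 52192 genes in the table, 88 fitted the pattern, and 5 of these are annotated as pseudogenes and were left out (Rps3a2, Rps3a3, Rps4l, Rps12l1 and Rpl6l). The remaining 83 genes comprise 51 of the large subunit and 32 of the small subunit.

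The cells were AML12, an established line of mouse hepatocytes, and RNA was sequenced after infection with a lentivirus. The virus delivered a short hairpin RNA, either the control (shCtrl) or 1 directed at Safb (shSafb), the gene of a nuclear DNA- and RNA-binding protein called scaffold attachment factor B. There were 2 libraries per group, and the cells of both groups were kept in 10% fetal bovine serum with an ITS supplement and 0.1 uM dexamethasone, a glucocorticoid, and were collected at day 5. The labels distinguish no second hairpin against Safb. Nor do they state that replicates came from different cultures, so a p-value here reflects only how these samples spread, which may be technical. Levels are in TPM, in which a gene's reads are divided by its length and every library is brought to the same total, so the sequencing depth is unknown.

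The ribosome has a small subunit, which reads the mRNA, and a large subunit, which joins the amino acids. Each ribosome carries 1 copy of nearly every ribosomal protein, the stalk proteins being the exception, and the genes are among the most highly transcribed of growing cells. Their mRNAs begin with a stretch of pyrimidines, the 5-prime TOP motif, through which the kinase complex mTORC1 and the protein LARP1 control translation. Hepatocytes, which export much of the protein they make, carry ribosomes in large number.

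The sequences around the transcription start are shown first because these genes are known for the pyrimidine stretch. A marked run need not lie at the first base of the mRNA. RefSeq promoter sequences (GRCm38.p6, 250 bases before to 50 after the start) were matched by symbol for 63 of the 83 genes. The 4 genes with the largest rise and the 4 with the largest fall among called genes with an entry are printed from 60 bases before to 30 bases after the annotated start, 5′ to 3′ on the gene's strand, and capitals mark the longest unbroken run of C and T where it has at least 8 bases. Where RefSeq gives several starts, the one with the longest run was taken. Counted from that start, the run begins at -39 in Rpl22 and at -22 in Rps25. With 14 bases each, both runs end before the start, so by this annotation they are not in the mRNA. In Rpl11 and Rps12 the run begins after the start, at 14 and 9. In Rpl35a, Rpl34 and Rps27 it begins at -5, -17 and -2 and crosses the start. The rising genes are Rpl35a (chr16:33056422-33056511, plus strand), Rpl7l1 (chr17:46782627-46782716, minus strand), Rpl34 (chr3:130730308-130730397, minus strand) and Rpl11 (chr4:136053364-136053453, minus strand). The falling genes are Rps25 (chr9:44407654-44407743, plus strand), Rpl22 (chr4:152325666-152325755, plus strand), Rps27 (chr3:90213619-90213708, minus strand) and Rps12 (chr10:23787180-23787269, minus strand).
Rpl35a: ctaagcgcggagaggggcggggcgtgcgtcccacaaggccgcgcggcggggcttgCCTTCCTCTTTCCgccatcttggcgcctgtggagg
Rpl7l1: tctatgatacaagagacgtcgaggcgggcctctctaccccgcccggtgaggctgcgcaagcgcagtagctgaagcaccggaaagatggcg
Rpl34: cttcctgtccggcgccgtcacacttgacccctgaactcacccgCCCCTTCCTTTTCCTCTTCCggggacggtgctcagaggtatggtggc
Rpl11: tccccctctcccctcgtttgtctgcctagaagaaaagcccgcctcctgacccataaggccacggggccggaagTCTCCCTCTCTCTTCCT
Rps25: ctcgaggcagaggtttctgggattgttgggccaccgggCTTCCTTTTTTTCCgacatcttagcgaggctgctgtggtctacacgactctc
Rpl22: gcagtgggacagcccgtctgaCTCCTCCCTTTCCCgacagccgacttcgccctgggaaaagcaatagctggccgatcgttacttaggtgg
Rps27: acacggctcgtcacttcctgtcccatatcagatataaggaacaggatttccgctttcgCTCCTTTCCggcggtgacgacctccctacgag
Rps12: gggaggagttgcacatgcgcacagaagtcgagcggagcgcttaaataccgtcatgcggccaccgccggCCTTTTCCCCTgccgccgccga

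A run of at least 8 pyrimidines on the gene's strand within 50 bases of a start was found in 52 of the 63 genes (82.5%), against 39.2% of 17492 protein-coding genes with an entry. It was present in 20 of 24 genes called higher in shSafb, in 7 of 7 called lower and in 23 of 29 that were not called. Rpl7l1 had no such run in its printed window, where the longest was 7 bases. The letters CCGGAAG, the core bound by ETS factors such as GABP, were found on either strand of the 300-base sequence in 26 of 63 genes (41.3%), against 12.9% of protein-coding genes. They were present in 13 of 24 genes called higher, 2 of 7 called lower and 10 of 29 not called. The letters ATGGCGGC, part of the sequence bound by YY1, were found on either strand in 4 of 63 genes (6.35%), against 3.50%. A match is only a match of letters and is not evidence of binding.

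Before the members, the libraries were checked. Safb was at 23.8 and 23.3 TPM in the shCtrl libraries and at 15.8 and 15.02 TPM in the shSafb libraries, so the groups did not overlap. It fell 1.53-fold (log2 change -0.56 ± 0.07, SE; limma, Benjamini-Hochberg adjusted p = 0.00411). All 9 hepatocyte markers reached 1 TPM. Their summed level was 9725 to 9897 TPM in shCtrl and 13632 to 13784 TPM in shSafb, but without Trf (transferrin) it was 7307 to 7444 TPM in shCtrl and 6854 to 6970 TPM in shSafb. Trf was at 2453 and 2418 TPM in shCtrl and 6814 and 6778 TPM in shSafb, while Alb (albumin) was at 378 and 345 TPM against 122 and 127 TPM. None of 7 fibroblast, 1 of 5 macrophage and none of 5 endothelial markers reached 1 TPM on average, and their summed levels were at most 2.26, 3.09 and 0.153 TPM in any library. The share of mitochondrially encoded genes was 0.845% and 0.703% in shCtrl and 0.318% and 0.343% in shSafb, and small RNA genes held 29.9% to 31.9% in the 4 libraries. After removal of the small RNAs and the mitochondrial genes, the subunit counts given below were the same (24 higher and 3 lower for the large, 7 and 6 for the small subunit), and the ratios of the summed levels were 1.11 and 1.01. The part of the hepatocyte markers in the results was not tested. In bulk RNA, a change in the make-up of the cells and a change in RNA per cell cannot be told apart.

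In the shSafb libraries the genes of the large subunit were more often higher than lower, while those of the small subunit went both ways. Of the 48 large subunit genes tested, 24 rose and 3 fell, with a median log2 change of 0.17. Of the 32 small subunit genes, 7 rose and 6 fell, with a median of -0.02. The median over all 13111 tested genes was 0.00. A gene was tested if its mean was at least 1 TPM, and called if its adjusted p was under 0.05 in limma over all tested genes. Those calls covered 44.3% of all tested genes, 21.9% higher and 22.4% lower, so the 40 calls among 80 tested ribosomal protein genes (50%) are near the background. The large subunit share of 50% higher stands beside 21.9%, and its 6.25% lower beside 22.4%. The small subunit shares were 21.9% higher and 18.8% lower. The median standard error was 0.047 for the large and 0.053 for the small subunit, against 0.094 over all tested genes. The median absolute log2 changes were 0.19, 0.15 and 0.30. A change of a given size is thus called more readily among members, and the part of this in the shares was not tested. The difference between the subunits was not tested, since the genes of a subunit are not replicates of a condition.

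The number of calls moved when a single library was left out. Such a fit leaves a group with a single library and has fewer residual degrees of freedom. A call lost in it, here or below, therefore need not reflect that library or that gene. Without shSafb replicate 1, 15 large subunit genes were higher and 2 lower, and 4 small subunit genes were higher and 2 lower. Without shSafb replicate 2 the counts were 16 and 1 for the large subunit and 5 and 3 for the small subunit. On the deposited TPM without further scaling, 6 small subunit genes were higher and 8 lower. Over the 13111 genes the number higher dropped likewise, to 1768 and 1814. The changes were small: only Rpl35a, Rpl7l1 and Rpl34 rose by at least 1.5-fold and only Rps20 fell by that much, 4 of 80, where 20.7% of all tested genes passed both thresholds. Summed with its near-identical copies, which are described below, Rpl34 had a log2 change of 0.50 and did not reach 1.5-fold (log2 0.585).

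**Figure D1:**
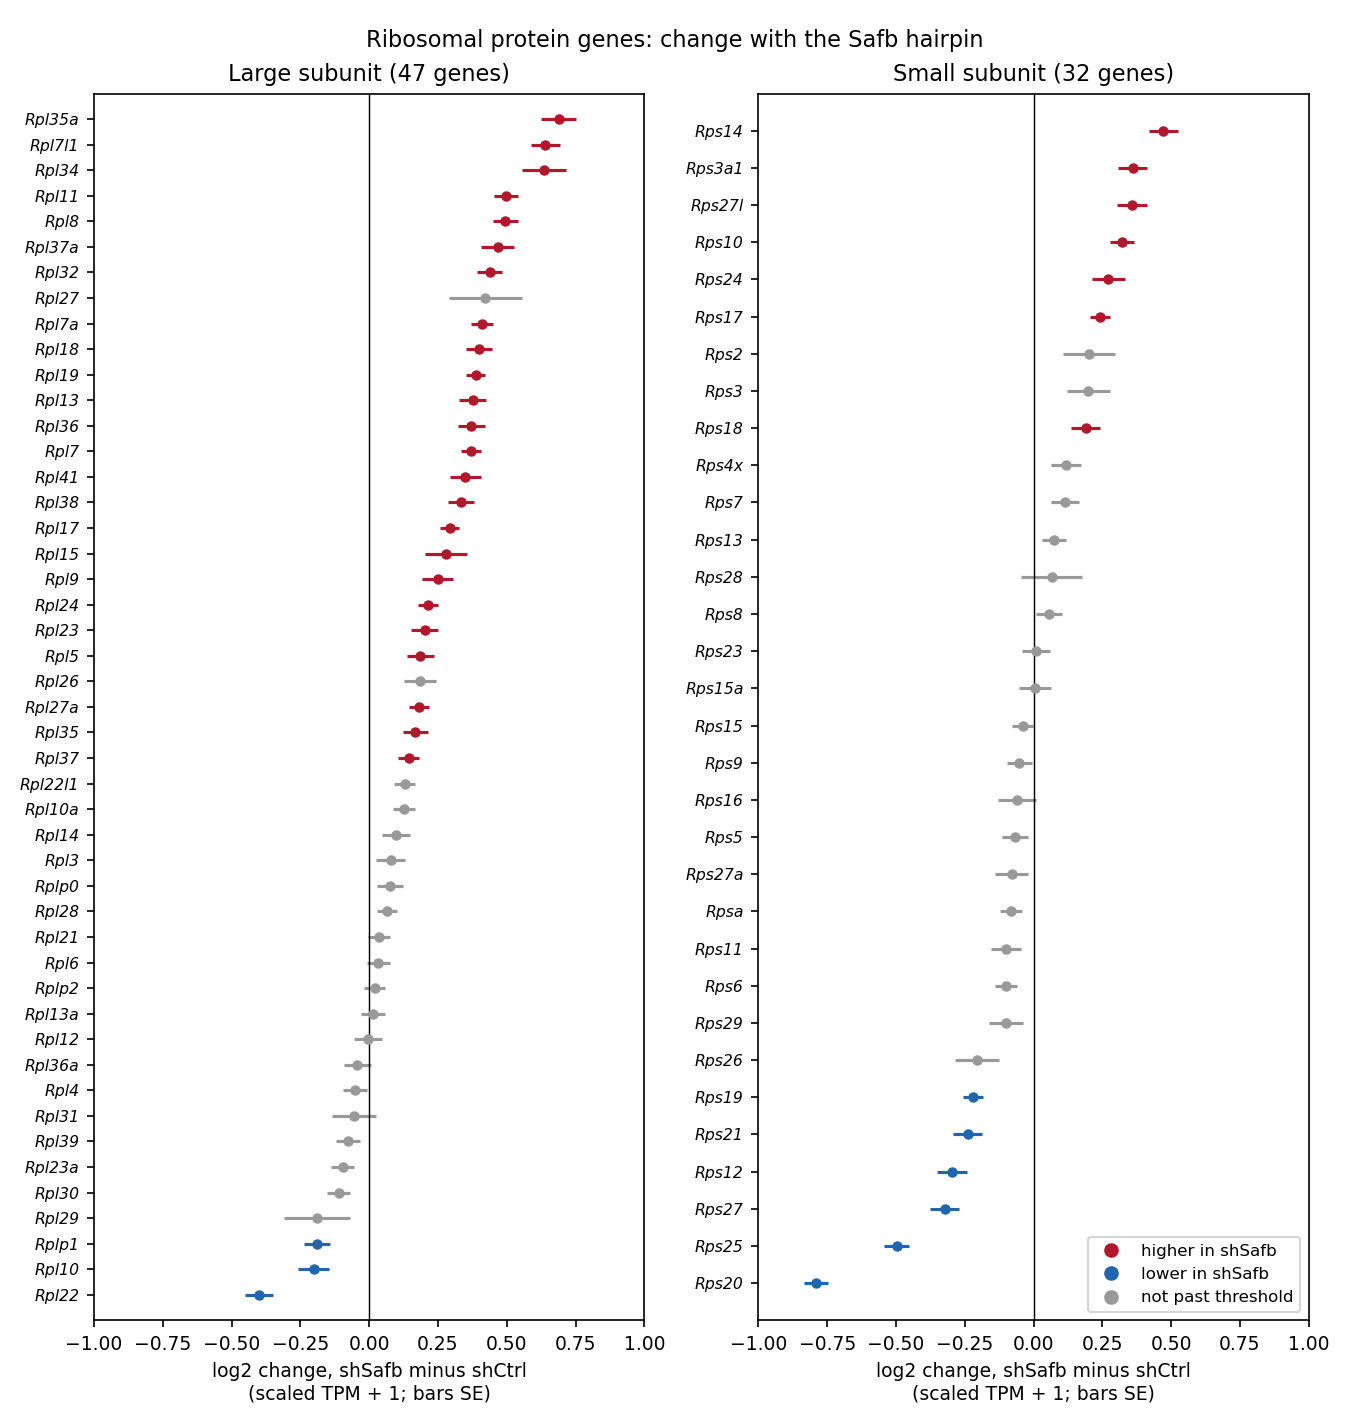
Log2 change (shSafb minus shCtrl, scaled TPM + 1) of tested ribosomal protein genes with standard errors, large subunit on the left and small subunit on the right, red for genes called higher, blue for genes called lower and grey for the rest; 1 grey gene of the large subunit is not shown. On the left 24 genes are red and 3 blue; on the right 7 of 32 are red and 6 blue, and Rps20 is the lowest of all.

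Summed over its genes, the large subunit was at 61909 and 61721 TPM in the shCtrl libraries and at 69713 and 68536 TPM in the shSafb libraries. Both shSafb sums lay above both shCtrl sums. The ratio of the means was 1.12 ± 0.0137 (SD propagated from the SDs of the 2 groups, n = 2 each, as for the next ratio). The small subunit was at 40812 and 41273 TPM in shCtrl and at 42061 and 40995 TPM in shSafb. Its sums overlapped between the groups, and the ratio was 1.01 ± 0.0200. Within each library, the large subunit sum was 1.52 and 1.495 times the small subunit sum in shCtrl and 1.66 and 1.67 times in shSafb. Ribosomal protein genes together held 10.3% of the TPM in each shCtrl library and 11.2% and 10.95% in the shSafb libraries. The sums run over genes chosen with earlier results known and carry no test. Without the 5 most abundant genes of each subunit the ratios were 1.14 for the large and 0.970 for the small subunit, so the small subunit sum changed direction. It was also 0.999 without shSafb replicate 1.

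**Figure D2:**
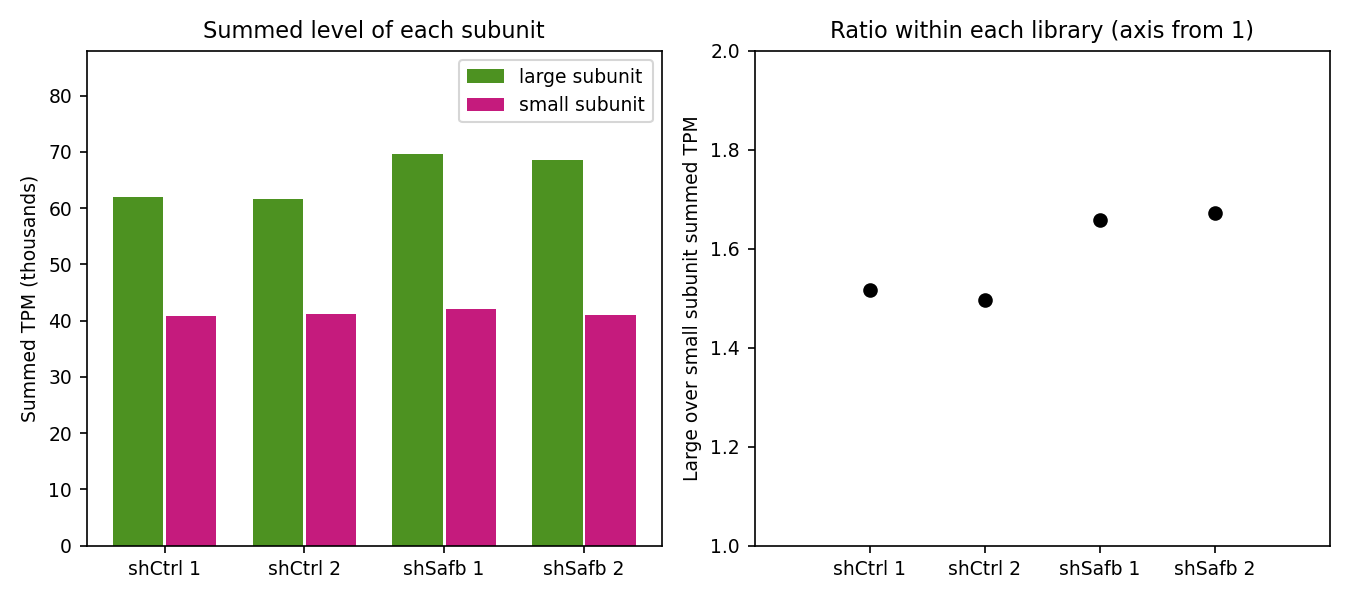
Left, summed TPM of large and small subunit genes in each library (units of 1000 TPM); right, the ratio of the large to the small subunit sum in each library, on an axis that starts at 1. The 2 shSafb libraries, at 1.66 and 1.67, lie above the 2 shCtrl libraries, at 1.52 and 1.495.

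Among large subunit genes, Rpl35a had the largest rise. It was at 54.9 and 57.4 TPM in shCtrl and at 91.9 and 87.1 TPM in shSafb. Both shSafb values lay well above both shCtrl values, a 1.59-fold rise (log2 change 0.69 ± 0.06, limma adjusted p = 0.00241). The gene (ENSMUSG00000060636) lies on the plus strand of chromosome 16 from 33056453 to 33060189, and its protein is among those mutated in Diamond-Blackfan anaemia. Rpl7l1, a paralog of Rpl7 that acts in pre-ribosomes, was at 53.4 and 54.5 TPM in shCtrl and at 83.6 and 82.8 TPM in shSafb (log2 change 0.64 ± 0.05, adjusted p = 0.00179). Rpl7 itself, which is far more abundant, was at 1864 and 1797 TPM in shCtrl and at 2352 and 2296 TPM in shSafb, 1.27-fold higher. Both members of the pair rose. Rpl35a and Rpl7l1 overlap predicted genes on the opposite strand (Gm17106 and Gm26904). In all, 23 of the 80 tested members overlap a gene on the opposite strand, Rpl32, Rpl5, Rps14, Rps18 and Rps25 among them. Of these 23, 10 were called higher and 1 lower, and of the 57 with no such overlap 21 were higher and 8 lower. Over all tested genes 21.9% were higher and 22.4% lower, and the difference was not tested. Whether the authors counted by strand is not given, so the values of the 23 are uncertain to that extent.

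Rpl11, whose protein joins the 5S RNA particle and can restrain Mdm2, the regulator of p53, was at 672 and 670 TPM in shCtrl and at 947 and 915 TPM in shSafb. That was a 1.39-fold rise with little spread in either group (log2 change 0.50 ± 0.04, limma adjusted p = 0.00191). Rpl5, its partner in the 5S particle, was at 880 and 898 TPM in shCtrl and at 1012 and 976 TPM in shSafb. Its rise was smaller (1.12-fold, adjusted p = 0.0361) and was called in 7 of 16 alternatives. It did not pass with a trend on GC content and length removed (adjusted p = 0.0732), or when shCtrl replicate 1 (0.112), shSafb replicate 1 (0.166) or shSafb replicate 2 (0.0910) was left out, in a range of 0.0263 to 0.166 over the alternatives. Rpl8, a protein near the peptidyl transferase centre where amino acids are joined, was at 2229 and 2243 TPM in shCtrl and at 3145 and 3051 TPM in shSafb, 1.39-fold higher (adjusted p = 0.00219). The other large subunit genes called higher had log2 changes from 0.14 (Rpl37) to 0.63 (Rpl34). In all, 13 of the 24 genes of the large subunit called higher were called higher under each of 16 alternative analyses.

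The stalk of the large subunit, which recruits the elongation factors, did not move as 1 group. Rplp1 was the most abundant of the tested ribosomal protein genes over the mean of the 4 libraries, though below Rpl32 in both shSafb libraries. It was at 5467 and 5516 TPM in shCtrl and at 4808 and 4653 TPM in shSafb, 1.16-fold lower (log2 change -0.19 ± 0.05, limma adjusted p = 0.0307). The Rplp1 call was kept in 9 of 16 alternatives. It was lost with the filter at a mean of 0.1 TPM, without a filter, without an intensity trend and with the replicate number as a block. Leaving out shCtrl replicate 2, shSafb replicate 1 or shSafb replicate 2 also ended it. Rplp0, which anchors the stalk, was at 4273 and 4371 TPM in shCtrl and at 4478 and 4476 TPM in shSafb (log2 change 0.08 ± 0.05, adjusted p = 0.247). Rplp2, the partner of Rplp1, was at 723 and 675 TPM in shCtrl and at 692 and 700 TPM in shSafb, so its groups overlapped. Rpl10, which joins the large subunit last and completes it, was at 582 and 521 TPM in shCtrl and at 456 and 486 TPM in shSafb. Its fall (adjusted p = 0.0436) was kept in 6 of 16 alternatives. It was lost with a trend on GC content and length removed (0.125) and without shCtrl replicate 1 (0.119), shSafb replicate 1 (0.200) or shSafb replicate 2 (0.0864), in a range of 0.0393 to 0.200.

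Rpl22 fell most in the large subunit. It was at 202 and 185 TPM in shCtrl and at 147 and 141 TPM in shSafb, 1.35-fold lower (log2 change -0.40 ± 0.05, limma adjusted p = 0.00482), with no overlap. Its protein is not needed for ribosome function and also binds RNA elsewhere, including that of its paralog. The paralog Rpl22l1 was at 368 and 359 TPM in shCtrl and at 396 and 386 TPM in shSafb. Its values lay above those of the controls but did not pass the threshold (log2 change 0.13 ± 0.04, adjusted p = 0.0537). Rpl22l1 was therefore the more abundant of the pair, per length, in all 4 libraries. Of the paralogs known from germ cells or muscle, Rpl3l and Rpl10l were listed at 0 in every library, and Rpl39l was at 0.138 and 0 TPM in shCtrl and 0.210 and 0 TPM in shSafb. Their parents Rpl3 and Rpl39 were abundant (1052 to 1131 and 2887 to 3147 TPM) and did not pass the test (adjusted p = 0.280 and 0.217).

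In the small subunit the strongest change of all tested ribosomal protein genes was the fall of Rps20, which encodes a protein of the subunit's head. It was at 112 and 110 TPM in shCtrl and at 62.3 and 62.9 TPM in shSafb. The 2 groups were far apart and the replicates within each nearly equal, a 1.77-fold fall (log2 change -0.79 ± 0.04, limma adjusted p = 0.000863). Rps20 (ENSMUSG00000028234) lies on the minus strand of chromosome 4 from 3831334 to 3835665 and hosts 1 annotated small nucleolar RNA gene. Rps25, also a head protein and needed for initiation from certain viral RNAs, was at 330 and 330 TPM in shCtrl and at 225 and 234 TPM in shSafb, 1.44-fold lower (log2 change -0.50 ± 0.05, adjusted p = 0.00222). Rps25 overlaps genes on the opposite strand (Trappc4 and Ccdc84), and, with the counting's use of strand not given, its reads are uncertain to that extent. Both falls were called under each of the 16 alternatives.

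Other falls in the small subunit were smaller. Rps27 was at 1979 and 2052 TPM in shCtrl and at 1560 and 1604 TPM in shSafb, 1.27-fold lower (limma adjusted p = 0.00926). Of the 16 alternatives only that without shSafb replicate 1 ended the call (adjusted p = 0.0654, the highest of a range from 0.00302). Its paralog Rps27l, a known target of p53, went the other way. Rps27l was at 469 and 479 TPM in shCtrl and at 577 and 618 TPM in shSafb, 1.26-fold higher (adjusted p = 0.00839). Rps12, a head protein, was at 1771 and 1843 TPM in shCtrl and at 1465 and 1426 TPM in shSafb, 1.25-fold lower (adjusted p = 0.0130). Rps19, another gene mutated in Diamond-Blackfan anaemia, was at 1700 and 1656 TPM in shCtrl and at 1422 and 1405 TPM in shSafb, 1.19-fold lower (adjusted p = 0.00987). Neither of the last 2 calls held without shSafb replicate 1 (0.0619 and 0.0727) or without shSafb replicate 2 (0.0789 and 0.0870). Both were also lost with the replicate number as a block and a trend on GC content and length removed, and each was kept in 13 of 16 alternatives. Rps21 was 1.20-fold lower (adjusted p = 0.0225), a call kept in 10 of 16. It was lost without a filter on low values, without an intensity trend and with the replicate number as a block. Leaving out shCtrl replicate 2, shSafb replicate 1 or shSafb replicate 2 also ended it. Over the alternatives the adjusted p ranged from 0.00383 to 0.0789 for Rps12, from 0.00571 to 0.132 for Rps19 and from 0.00746 to 0.127 for Rps21.

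Of 14 proteins of the small subunit's head, a list chosen after the values were seen, 3 genes rose and 4 fell, with a median log2 change of -0.06. Of the 18 outside the head, 4 rose and 2 fell, with a median of 0.03. The shares over all tested genes, 21.9% higher and 22.4% lower, stand beside 21.4% and 28.6% for the head, and the difference between the lists was not tested. Without shSafb replicate 1 the head had 1 higher and 2 lower and the rest 3 and 0, and without shSafb replicate 2 they had 1 and 2, and 4 and 1. Without shCtrl replicate 1, 2 head genes were higher and 4 lower. Among the rises, Rps14, a platform protein encoded in the human region lost in the 5q syndrome, was at 2953 and 3065 TPM in shCtrl and at 4153 and 4043 TPM in shSafb. It was 1.36-fold higher (log2 change 0.47 ± 0.05, limma adjusted p = 0.00369), the largest rise of the small subunit, and it overlaps Ndst1 on the opposite strand. Rps3a1, whose protein binds near the mRNA exit, was at 1610 and 1661 TPM in shCtrl and at 2104 and 2024 TPM in shSafb, 1.26-fold higher (adjusted p = 0.00710). Rps10, a head protein, was 1.23-fold higher and Rps24 was 1.19-fold higher. The Rps24 call was kept in 10 of 16 alternatives. It was lost without a filter on low values and without an intensity trend. The replicate number as a block, alone or with a trend on GC content and length removed, also ended it. So did leaving out shCtrl replicate 1 or shSafb replicate 1. Rps6, the substrate of the S6 kinases, was at 1303 and 1302 TPM in shCtrl and at 1203 and 1186 TPM in shSafb, and Rps3, a head protein at the mRNA entry, was at 1567 and 1680 TPM against 1921 and 1745 TPM. Neither passed the test (adjusted p = 0.108 and 0.101). Rpsa, which also serves as a laminin receptor, was at 2838 and 2826 TPM in shCtrl and 2632 and 2627 TPM in shSafb (adjusted p = 0.159).

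**Figure D3:**
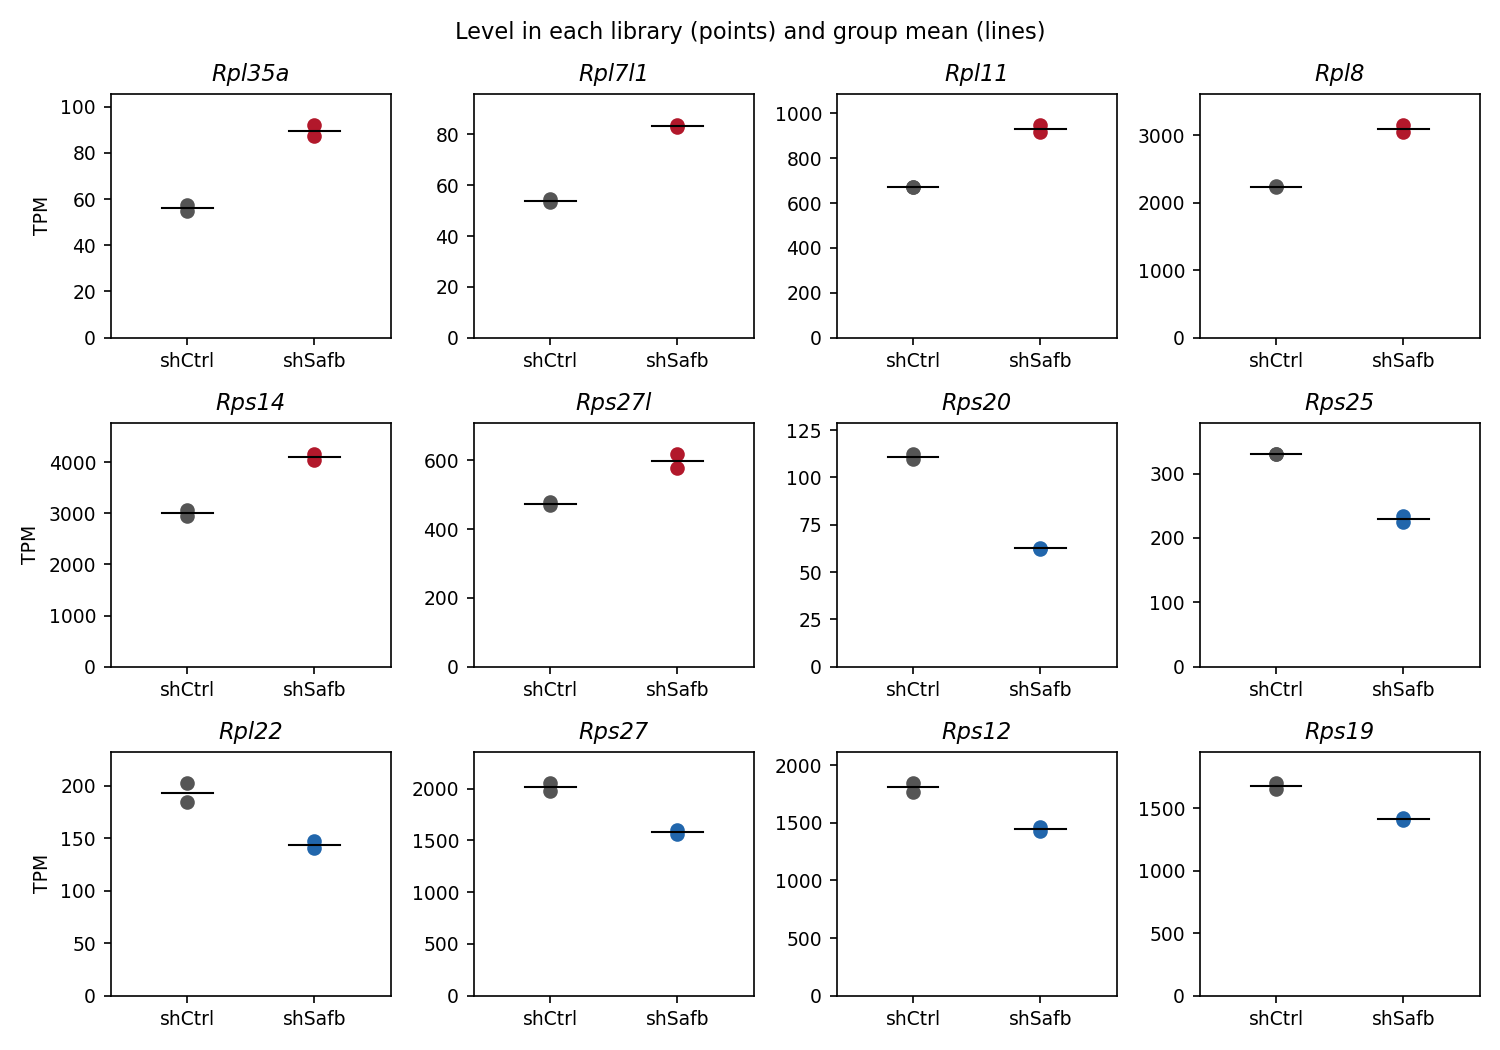
TPM of 12 ribosomal protein genes in each library (points) with the mean of each group (line), on axes that start at 0. The shSafb points lie above the shCtrl points for Rpl35a, Rpl7l1, Rpl11, Rpl8, Rps14 and Rps27l. They lie below them for Rps20, Rps25, Rpl22, Rps27, Rps12 and Rps19. The 12 genes were picked from the called genes, so this separation is no separate result, and 74.7% of all tested genes did not overlap either.

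Across the 80 tested genes, the values of the 2 groups did not overlap in 63 (78.8%), where 74.7% of all tested genes did not. The median distance between the 2 libraries of a group was 0.05 on the log2 scale in each group, and the widest in shCtrl was that of Rpl29 (0.39), which did not pass the test. Annotated small nucleolar RNA genes, which guide the chemical modification of ribosomal RNA, lie on the same strand within the bounds of 30 members. The related Cajal body RNA genes were counted with them, and placement in an intron was not checked. Of these 30 hosts, 9 rose and 3 fell, with a median log2 change of 0.03. Of the 50 other tested members, 22 rose and 6 fell, with a median of 0.13. That is 30% higher and 10% lower for the hosts and 44% and 12% for the others, beside 21.9% and 22.4% of all tested genes, and the difference between them was not tested. Without shSafb replicate 1 the hosts had 5 higher and 2 lower and the others 14 and 2, and without shSafb replicate 2 they had 5 and 1, and 16 and 3. Without shCtrl replicate 1, 6 hosts were higher and 2 lower.

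Ribosomal protein genes have many near-identical copies elsewhere in the genome, mostly processed pseudogenes, and short reads can be split between a gene and its copies. Other genes with a transcript at least 95% identical over at least 80% of a member's coding sequence came to 573. Some of them are annotated as protein-coding, and each was counted once, for the member it matched best. Of the 573 genes, 534 were in the table. They summed to 15756 and 15948 TPM in shCtrl and to 18448 and 17613 TPM in shSafb. In 8 of the 80 tested genes the copies were listed above the gene itself. The copies held 97.1% of the joint TPM of Rpl34, 97.0% of Rps2, 97.0% of Rpl26, 94.8% of Rps18, 85.3% of Rpl29, 76.7% of Rpl30, 54.8% of Rpl15 and 54.7% of Rpl35a. These members, some of them named here because of this share, are therefore uncertain as single genes.

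The alignments below show how little separates a gene from its most abundant copy, read from GENCODE mouse release 21 transcripts on GRCm38. Each pair gives 60 coding bases, 5′ to 3′, with the differing base in capitals. Positions count from 1 at the A of the start codon, and a token gives the member's base, the position and the copy's base. Rpl26 and Gm15772 (chr5:3236431-3236868, plus strand) differ at 2 of 435 bases, of which C177T is shown. Rps18 and Gm10260 (chr13:97760072-97760632, minus strand) differ at 4 of 456 bases, with T186C shown. Rpl34 and Rpl34-ps1 (chr6:71124610-71124963, plus strand) differ at 2 of 351 bases, with T132C shown.
Rpl26: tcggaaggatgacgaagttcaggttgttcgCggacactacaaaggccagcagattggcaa
Gm15772: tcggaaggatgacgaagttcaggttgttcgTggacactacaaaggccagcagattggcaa
Rps18: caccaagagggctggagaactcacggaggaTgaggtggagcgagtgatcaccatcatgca
Gm10260: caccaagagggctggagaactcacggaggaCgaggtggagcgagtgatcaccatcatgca
Rpl34: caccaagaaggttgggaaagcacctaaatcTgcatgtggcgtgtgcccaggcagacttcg
Rpl34-ps1: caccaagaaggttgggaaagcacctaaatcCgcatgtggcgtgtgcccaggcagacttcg

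Rpl34 was listed at 29.9 and 32.7 TPM in shCtrl and at 49.1 and 47.4 TPM in shSafb (log2 change 0.63 ± 0.08, limma adjusted p = 0.00472). Its copy Rpl34-ps1 was listed at 1045 and 1069 TPM in shCtrl and at 1481 and 1441 TPM in shSafb. Gene and copies summed had a log2 change of 0.50 (adjusted p = 0.00282). Rpl26, whose copy Gm15772 was at 3074 and 3218 TPM in shCtrl and at 3839 and 3577 TPM in shSafb, was not called alone (adjusted p = 0.0605) but was called higher with its copies (log2 change 0.26, adjusted p = 0.0261). Rps2 likewise passed only as a sum (0.152 alone, 0.0157 summed), and so did Rpl27 (0.0574 and 0.0392). The opposite held for Rps18, called higher alone (adjusted p = 0.0435) and not as a sum (0.124), and for Rpl10 (0.0532 as a sum). With each member summed with its copies, 26 large subunit genes were higher and 2 lower, and 7 small subunit genes were higher and 6 lower, where 22.1% of all features tested this way were higher and 22.6% lower.

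**Figure D4:**
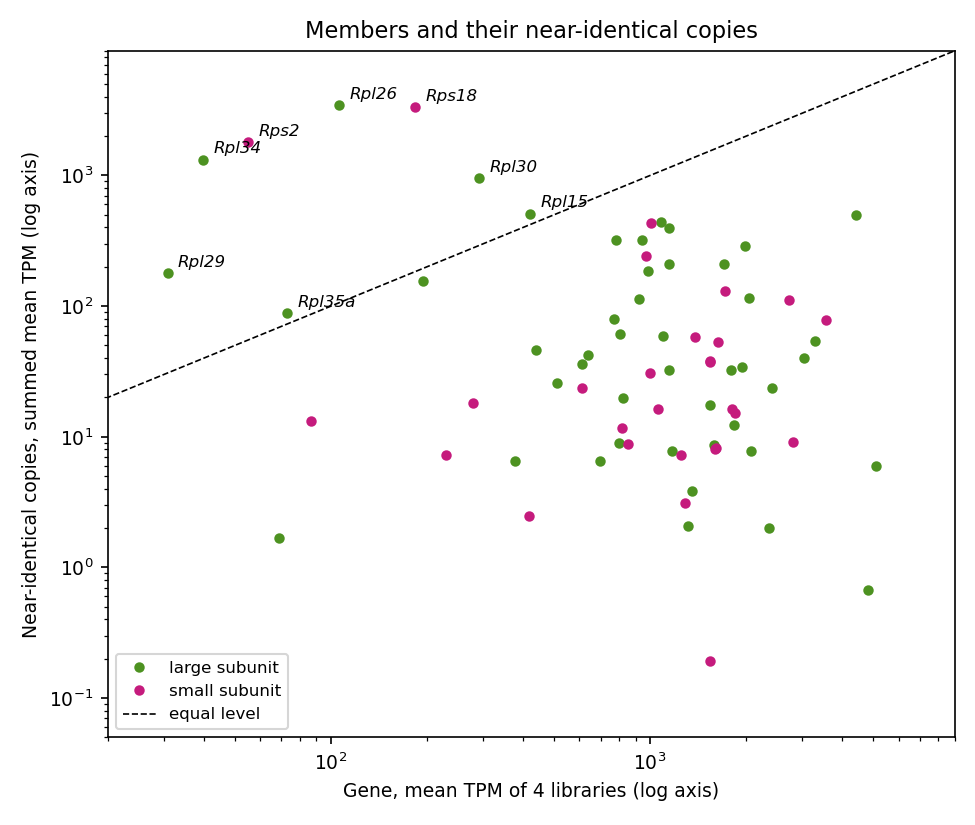
Mean TPM over the 4 libraries of each tested ribosomal protein gene with copies above 0 (horizontal, log axis) against the summed mean TPM of its near-identical copies (vertical, log axis); the dashed line marks equal levels. The 8 labelled genes, among them Rpl34, Rps2, Rpl26 and Rps18, lie above the line.

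The other genes of ribosome production and translation were read from lists, whose counts stand beside 21.9% higher and 22.4% lower over all tested genes. Of 4 ribosomal proteins with other symbols, Rpl36al rose, from 265 and 282 TPM to 321 and 323 TPM (log2 change 0.26 ± 0.06, limma adjusted p = 0.0263), but did not pass without shCtrl replicate 1 (0.0533), shSafb replicate 1 (0.0948) or shSafb replicate 2 (0.0936; range 0.0165 to 0.0948). Fau and Rack1, which encode small subunit protein S30 and the scaffold on the small subunit's head, did not pass (adjusted p = 0.377 and 0.240). Of 17 other mRNAs with a 5-prime TOP motif, 4 rose and 3 fell (23.5% and 17.6%), with a median log2 change of -0.01. Leaving out either shCtrl library gave 1 and 2, shSafb replicate 1 gave 0 and 2, and shSafb replicate 2 gave 0 and 1. Vim, the intermediate filament vimentin, fell from 583 and 544 TPM to 295 and 291 TPM (log2 change -0.92 ± 0.04, adjusted p = 0.000636). Eef1b2, an exchange factor of elongation, was 1.20-fold lower, and Npm1, a nucleolar chaperone, was 1.13-fold higher. The Eef1b2 call was lost without shSafb replicate 1 (adjusted p = 0.0669) or 2 (0.0646; range 0.00473 to 0.0669), and the Npm1 call without shCtrl replicate 2 (0.0877), shSafb replicate 1 (0.121) or shSafb replicate 2 (0.0770; range 0.0241 to 0.121).

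Of 29 translation initiation factors, 14 rose and 3 fell (48.3% and 10.3%, beside 21.9% and 22.4% of all tested genes), with a median of 0.13. The counts were 9 and 3 when shCtrl replicate 1 was left out, 8 and 3 for shSafb replicate 1, and 7 and 2 for shSafb replicate 2. Eif2b2, a subunit of the exchange factor for eIF2, rose from 24.9 and 23.4 TPM to 40.9 and 38.4 TPM (1.64-fold, limma adjusted p = 0.00195). Eif3g, of the eIF3 complex, was 1.44-fold higher (adjusted p = 0.00194), and Eif4a2, an RNA helicase, was 1.38-fold lower (adjusted p = 0.00475). Of 46 tested biogenesis factors, 11 rose and 5 fell (23.9% and 10.9%), with a median of 0.13. Those counts were 6 and 2 when shCtrl replicate 1 was left out, 7 and 5 for shCtrl replicate 2, 4 and 3 for shSafb replicate 1, and 6 and 1 for shSafb replicate 2. They included Emg1, which methylates small subunit RNA (1.38-fold higher, adjusted p = 0.00231), Las1l, which acts in the cleavage between the large subunit RNAs (1.54-fold higher, adjusted p = 0.00264), and Mdn1, an ATPase that remodels the large subunit precursor (1.73-fold higher, adjusted p = 0.00527). Riok2 is not analysed here.

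Of 13 import factors and chaperones of ribosomal proteins, 4 rose and 4 fell (30.8% each), with a median of 0.17. They were 2 and 3 when shCtrl replicate 1 was left out, 2 and 4 for shCtrl replicate 2, 1 and 2 for shSafb replicate 1, and 2 and 3 for shSafb replicate 2. Tsr2, the chaperone of Rps26, was at 9.32 and 13.3 TPM in shCtrl and at 2.45 and 2.72 TPM in shSafb, 4.37-fold lower (log2 change -1.74 ± 0.20, limma adjusted p = 0.00367). Rps26 itself, looked up because of this value, was at 490 and 416 TPM in shCtrl and at 368 and 402 TPM in shSafb. Its shSafb values lay below both shCtrl values, but it did not pass the test (log2 change -0.20 ± 0.08, adjusted p = 0.0999). Ipo5, an importin, was 1.44-fold lower (adjusted p = 0.00212), and Ipo7, another importin, was 1.23-fold higher (adjusted p = 0.00777), which did not pass once a trend on GC content and length was removed (log2 change 0.10 in place of 0.32, adjusted p = 0.164; range over the alternatives 0.00695 to 0.270).

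Of 23 tested genes of mTORC1 and LARP1 control, 5 rose and 6 fell (21.7% and 26.1%), with a median of -0.06, and 4 of each did so without shSafb replicate 1. Ddit4, an inhibitor of mTORC1 that glucocorticoids induce, was at 34.9 and 32.2 TPM in shCtrl and at 99.9 and 97.2 TPM in shSafb, 2.94-fold higher (log2 change 1.55 ± 0.05, limma adjusted p = 0.000531). Sesn3 and Sesn2, which also restrain mTORC1, were 2.68-fold and 1.78-fold lower (adjusted p = 0.000792 and 0.00152). The inhibitors named here thus moved in opposite directions. Of 16 genes of RNA polymerase I and Myc, 3 rose and 4 fell (18.8% and 25%), with a median of 0.07. Leaving out shCtrl replicate 1 gave 2 and 2, shCtrl replicate 2 gave 3 and 1, shSafb replicate 1 gave 1 and 1 and shSafb replicate 2 gave 0 and 1. Myc, a driver of ribosome production, rose from 17.6 and 15.5 TPM to 21.4 and 23.9 TPM (adjusted p = 0.0161), and Mxi1, an antagonist of Myc, was 1.44-fold lower (adjusted p = 0.0164). Gtf3a, a factor for transcription of the 5S RNA genes, was 1.40-fold lower (adjusted p = 0.00504). The Myc call was lost without shCtrl replicate 2 (0.0649) or shSafb replicate 2 (0.0667; range 0.0118 to 0.0667), and the Mxi1 call without any 1 library (0.0603 to 0.0770; range over all alternatives 0.0117 to 0.0770).

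Of 8 tested factors known to bind promoters of ribosomal protein genes, 3 rose and 1 fell (37.5% and 12.5%), with a median of 0.01. Leaving out shSafb replicate 1 gave 1 and 0, shSafb replicate 2 gave 1 and 1, and shCtrl replicate 2 gave 2 and 0. Gabpb2, a subunit of GABP, was 1.44-fold higher (limma adjusted p = 0.00775). Yy1 was 1.25-fold higher (adjusted p = 0.0115), and Tbp, the TATA-binding protein, was 1.39-fold lower (adjusted p = 0.0147). The Yy1 call was lost without shSafb replicate 1 (0.0555) or 2 (0.0597; range 0.00687 to 0.0597), and the Tbp call without shCtrl replicate 2 (0.0593) or shSafb replicate 1 (0.0715; range 0.00644 to 0.0715). Over all 156 tested genes of the 8 lists, 45 rose and 26 fell, 28.8% and 16.7%, beside 21.9% and 22.4% of all tested genes. Without shSafb replicate 1 those counts were 19 and 15, without shSafb replicate 2 they were 20 and 15, and without shCtrl replicate 1 they were 26 and 18.

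**Figure D5:**
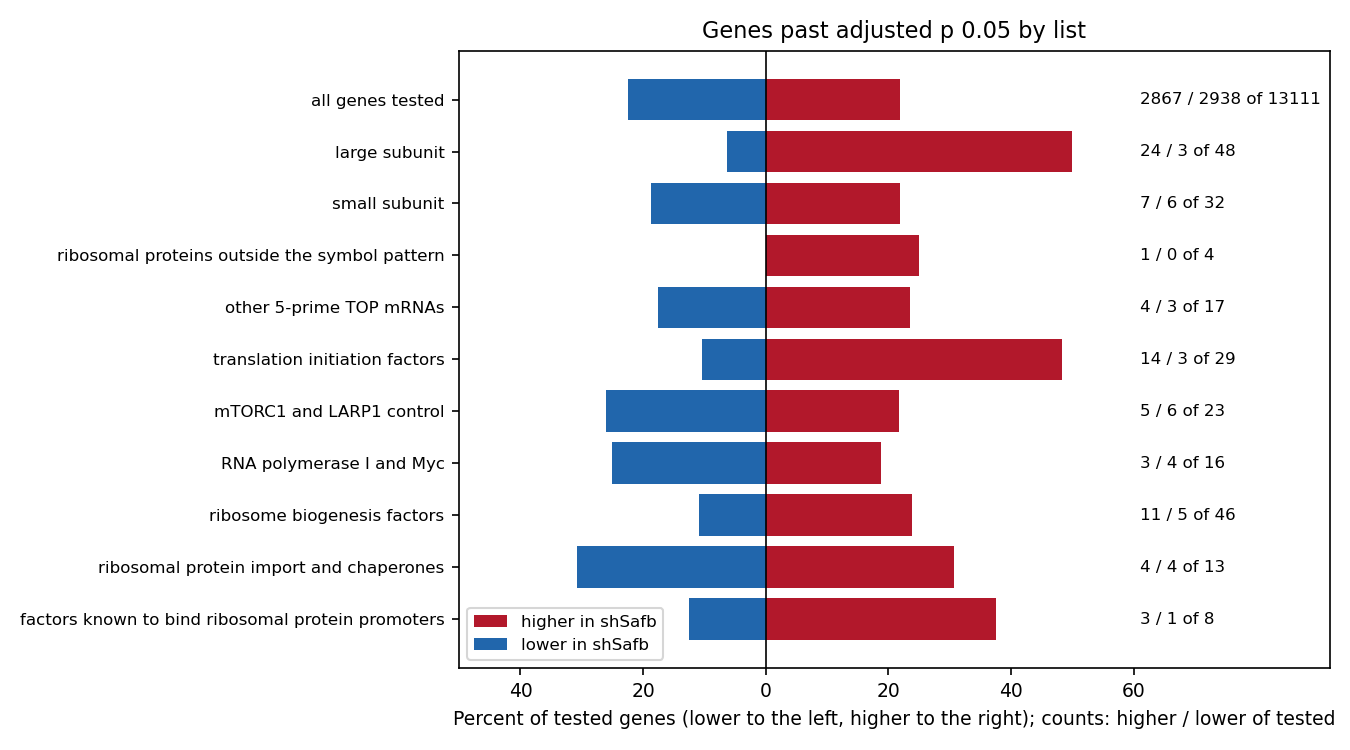
Percent of tested genes called higher (right, red) or lower (left, blue) in shSafb for all tested genes, the 2 subunits and the 8 lists, with the counts of higher and lower genes and of genes tested at the right. The large subunit, with 24 of 48, and the translation initiation factors, with 14 of 29, have the longest bars to the right.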

How the data were processed

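The values are the TPM that the authors deposited, 1 per gene and library. Libraries were stranded and made after removal of ribosomal RNA, per the labels' protocols. The submitters' processing notes name mm10, StringTie, HISAT2, HTSeq and DESeq2 without versions, roles or annotation, and whether counting used strand is not stated there. Groups and replicate numbers come from the sample titles. Rows of the 6 repeated identifiers were added up. Coordinates, gene types, small nucleolar RNA hosts and opposite-strand overlaps come from GENCODE mouse release 21, and copies were found with BLAST 2.17.0.

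The 13111 genes averaging 1 TPM or more were scaled by the median ratio to the geometric mean, and log2(scaled TPM + 1) was fitted with limma 3.58.1 in R 4.3.3 with the group as the only term and an intensity trend. There were 2 residual degrees of freedom and a prior of 2.61. Tests were two-sided, with Benjamini-Hochberg adjustment over all tested genes and a threshold of 0.05. Log2 changes are on that scale, which understates the change of low genes. Printed levels and fold changes are of the deposited TPM. Same-numbered libraries did not deviate together (r = -0.06 over genes), so the numbers were not taken as pairs.

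The members and lists were chosen with earlier results of these data known. Named genes were the 5 largest rises and falls and the 3 most abundant genes of each subunit, Rpsa and the stalk genes, paralogs with their parents, Rpl5, Rpl11, Rps3, Rps6 and Rps19, genes under the filter, Safb, and the 3 genes with the smallest p of each list together with the 4 ribosomal proteins outside the pattern. Rps26, Rpl26, Rps2, Rps18, Rpl27, Rpl30, Rpl15 and Rpl37 were named after their values were seen. Protein sequences are not used here, and the values of 2 genes are left out.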

Additional observations from a re-analysis of the deposited data

How the results depend on the processing

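No called gene changed direction. The small subunit sum did, without the 5 most abundant genes and without shSafb replicate 1. Over 106 genes and up to 17 alternatives, 1565 gene results stayed called or not called as before, 190 lost the call and 21 gained it. These alternatives include a required fold of at least 1.5, under which a call can be lost with its adjusted p unchanged. That setting is not among the 16 alternatives counted for members. Of the 31 ribosomal protein genes called higher, 17 were called under each of 16 alternatives, as were 3 of the 9 called lower. Requiring a fold of at least 1.5 left 1303 genes higher and 1408 lower over all tested genes, 3 and 1 among ribosomal protein genes, 3 and 0 in the large subunit, 0 and 1 in the small subunit, and 9 and 5 over the lists. Without a filter on low values, 1 large subunit gene was lower, 4 small subunit genes were higher and 26 list genes were higher, and without an intensity trend 1 large subunit gene was lower. Removing a trend on GC content and length moved the log2 change of Rplp1 from -0.19 to -0.30 and that of Rps19 from -0.22 to -0.13, with both still called, and Rpl3, Rpl10a, Rpl23a, Rpl27, Rpl28 and Rps15 passed, while Rpl5 and Rpl10 lost their calls (adjusted p = 0.0732 and 0.125). Among genes that were not called, signs near 0 changed, as for Rpsa (-0.08 to 0.01). The fits with fewer libraries, with fewer or more genes and with another variance model differ by construction, and the cause of single losses was not tested.

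Leaving out each library in turn gave 1768 to 2124 genes higher and 1961 to 2186 lower over all tested genes, 19 to 29 and 4 to 9 among ribosomal protein genes, 15 to 22 and 1 to 3 in the large subunit, 4 to 7 and 2 to 6 in the small subunit, and 19 to 33 and 15 to 20 over the lists. The summed ratios without each library ranged from 1.11 to 1.13 for the large and from 0.999 to 1.02 for the small subunit. Without the 5 most abundant genes they were 1.14 and 0.970. The sums without each library, and the fits and sums with copies, were added after seeing the data.

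With the replicate number as a block, 24 ribosomal protein genes were higher and 6 lower, 19 and 1 in the large and 5 and 5 in the small subunit. Over all tested genes that setting gave 2540 higher and 2686 lower, in place of 2867 and 2938. The pairing was not supported by the deviations (r = -0.06 over all tested genes, -0.01 over members). TPM give no depth, so counting error could not be separated from the spread between libraries.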
